A study of Mus musculus with 18 samples.

Results

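The genes that make, take up and move cholesterol were followed in cultured mouse ovarian follicles given anti-Müllerian hormone (AMH), a hormone that granulosa cells secrete. The set was chosen with earlier results of these data known, so its counts beside those of all genes are descriptions. It held 28 genes of known role: 18 enzymes of synthesis, 5 sensors, uptake receptors and carriers, and 5 genes of export, esterification and lysosomal transfer. A probe set with that 1 symbol was found for 26 of the 28, out of 18193 genes named this way on the array. The exceptions were Acat2, the thiolase that opens the pathway, and Soat1, which esterifies cholesterol, and they were not analysed here. Each gene was represented by its brightest probe set over all arrays, and all 26 lay in the brighter part of the array that was tested (11238 genes).

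RNA of preantral and small antral follicles was measured on 18 Affymetrix arrays, 1 per culture. The follicles came from C57BL/6Ntac mice of 6 to 8 weeks. Those of 7 mice were pooled for each experiment and divided over vehicle, 50 ng/mL and 200 ng/mL recombinant AMH, and all cultures also received 80 IU/L FSH and 10 IU/L LH. They were collected after 12 or 24 h, which gave 6 groups of 3 arrays (replicates 1 to 3), and vehicle, AMH 50 and AMH 200 of 1 time and number came from 1 pool. A pool is therefore the replicate in every comparison of doses. The 12 h and 24 h pools are different animals, so differences between times include differences between pools, and the number of arrays limits the precision throughout.

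Cholesterol synthesis runs from acetyl units through mevalonate and the isoprenoids to squalene, which is closed to lanosterol and then trimmed and reduced to cholesterol. The enzymes are controlled together by SREBP2, the product of Srebf2, a transcription factor held in the endoplasmic reticulum by INSIG proteins while sterols are plentiful. In the follicle, cholesterol is the substrate of steroid hormones, and lipoprotein cholesterol enters through the scavenger receptor encoded by Scarb1. The mouse oocyte makes little cholesterol of its own and is supplied by the granulosa cells around it.

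The promoters of 6 synthesis genes are shown because these genes carry the dose pattern described below or the only sterol response element found. Mvk, Mvd, Idi1, Nsdhl and Tm7sf2 were the synthesis genes with the largest difference between AMH doses at 24 h, and Hmgcs1 held the element. The 180 bases before each start site are from RefSeq, build GRCm38.p6, read 5′ to 3′ on the gene's strand. Capitals mark CCAAT on either strand (CCAAT or ATTGG), the motif of the factor NF-Y, and in Hmgcs1 also TCACNCCAC, a sterol response element.
Mvk (chr5:114444089-114444268, forward strand): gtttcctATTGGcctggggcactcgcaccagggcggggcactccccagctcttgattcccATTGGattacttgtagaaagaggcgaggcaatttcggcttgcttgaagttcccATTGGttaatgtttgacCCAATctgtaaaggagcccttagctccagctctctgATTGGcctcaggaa
Mvd (chr8:122443423-122443602, reverse strand): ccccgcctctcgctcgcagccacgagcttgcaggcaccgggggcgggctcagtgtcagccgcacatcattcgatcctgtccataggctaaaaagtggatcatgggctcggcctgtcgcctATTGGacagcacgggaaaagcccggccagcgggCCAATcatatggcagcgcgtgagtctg
Idi1 (chr13:8885426-8885605, forward strand): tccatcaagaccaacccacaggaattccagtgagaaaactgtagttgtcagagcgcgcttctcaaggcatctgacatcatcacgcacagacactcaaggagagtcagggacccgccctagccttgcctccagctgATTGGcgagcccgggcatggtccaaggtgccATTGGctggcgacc
Nsdhl (chrX:72918341-72918520, forward strand): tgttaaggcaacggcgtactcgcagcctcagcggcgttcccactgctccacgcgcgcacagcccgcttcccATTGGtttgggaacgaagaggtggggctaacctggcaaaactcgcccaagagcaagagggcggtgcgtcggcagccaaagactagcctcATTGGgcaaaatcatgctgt
Tm7sf2 (chr19:6067851-6068030, reverse strand): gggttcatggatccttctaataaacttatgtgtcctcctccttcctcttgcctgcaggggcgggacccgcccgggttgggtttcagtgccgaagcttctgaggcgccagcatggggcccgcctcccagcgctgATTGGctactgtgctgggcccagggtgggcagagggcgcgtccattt
Hmgcs1 (chr13:119690171-119690350, forward strand): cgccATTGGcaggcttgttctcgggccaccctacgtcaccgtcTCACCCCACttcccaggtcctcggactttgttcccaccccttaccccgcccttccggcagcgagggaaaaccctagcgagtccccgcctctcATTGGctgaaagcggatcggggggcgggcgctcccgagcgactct

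The promoter table held 21 of the 28 genes, and a window was searched from 250 bases before to 50 after each start. CCAAT on either strand lay in 14 of 15 synthesis genes and in 19 of all 21, against 41.1% of 27025 genes in the table. At least 2 copies were found in 9 of the 15 synthesis genes, against 13.3% of all genes. TCACNCCAC on either strand was found in Hmgcs1 alone of the 21, against 1.44% of all genes. The E-box CACGTG, whose reverse complement is the same, was in 5 of the 21, against 8.09% of all genes, and no site of 1 motif overlapped a site of another in these genes. These are matches of letters in a fixed window and say nothing of a factor's binding.

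One array, replicate 3 of AMH 50 ng/mL at 12 h, stood apart and is described on its own below. Over all probe sets it correlated with the others at 0.604 to 0.624. Among the remaining 17 arrays the range was 0.904 to 0.992, with a median of 0.972. The AMH 200 array of the same 12 h pool had a median correlation of 0.920 with the other 16, against at least 0.961 for each of those. The AMH comparisons therefore rest on 17 arrays, and values without the whole 12 h pool of replicate 3 are given where they differ. Markers of granulosa cells (9 genes, summed signal 2430 to 8564 per array over the 17) had at most 2 genes below the array's median signal. Markers of the oocyte (10 genes, sums 541 to 9991) had at most 2 below it in 15 of the 17 arrays, and 4 below it in both remaining arrays of the 12 h pool of replicate 3, Zp1, Bmp15 and Lhx8 among them. Cyp19a1, Insl3 and Lhcgr had no probe set of their own name. Leukocyte markers were also present, with 1 to 3 of 10 below the array's median; Csf1r reached 1144 and Lyz2 662, while Ptprc was below the median on all 17.

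Fold differences are given as log2(signal + 16), AMH minus vehicle of the same pool unless said otherwise, with the SE of a limma fit over the 17 arrays. In none of the AMH comparisons did limma call any of 22518 probe sets at an adjusted p under 0.05 (0%), and so no gene of the set. Probe sets at an unadjusted p under 0.05 numbered 607 for AMH 50 and 374 for AMH 200 against vehicle at 24 h, 938 for AMH 200 against 50, and 1285 and 2565 for AMH 50 and AMH 200 at 12 h. The differences below are therefore descriptions of direction and size. A lower signal could be fewer cells of a type or less RNA per cell, which cannot be told apart in whole follicles.

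The first question was how the low dose differed from vehicle after 24 h. Synthesis enzymes were mostly a little higher with AMH 50 ng/mL: 14 of 17 were above vehicle, with a median of 0.15. Of all 26 genes 19 were, with a median of 0.098, against 50.9% of all genes and a median of 0.003. With quantile normalization 17 were higher. With median centring of the arrays 25 were, but it put the median of all genes at 0.11, and 19 lay above that median. The median over the 26 was 0.13, 0.16 and 0.07 in pools 1, 2 and 3, and over the 17 enzymes it was 0.14, 0.13 and 0.10. In this comparison 9 of 26 were higher in all 3 pools and 0 were lower in all 3, against 11.8% and 11.7% of all genes. They were Mvk, Mvd, Sqle, Lss, Nsdhl, Hsd17b7, Ebp, Scarb1 and Stard4. An unadjusted p under 0.05 was reached by 0 of 26, against 3.15% of all genes.

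Mvk, the kinase that phosphorylates mevalonate, had signals of 320, 357 and 339 with vehicle and 397, 426 and 387 with AMH 50 in pools 1 to 3. All 3 AMH 50 arrays lay above all 3 vehicle arrays. The difference was 0.24 (SE 0.31), and a dimmer probe set was at 0.045. Hsd17b7, the ketoreductase of sterol demethylation, measured 812, 816 and 666 with vehicle and 979, 884 and 776 with AMH 50. It was higher within each pool although the groups overlapped, and differed by 0.20 (SE 0.13). Lss, which closes squalene epoxide to lanosterol, was at 1206, 1119 and 1049 with vehicle and 1541, 1225 and 1126 with AMH 50 (difference 0.19, SE 0.21). Ebp, the sterol isomerase, differed by 0.22 (SE 0.15), and Sqle, which makes the epoxide from squalene, by 0.19 (SE 0.18).

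The remaining enzymes differed less or not in 1 direction. Mvd, the decarboxylase that yields isopentenyl diphosphate, was 0.01, 0.35 and 0.10 above vehicle in the 3 pools. Tm7sf2, a sterol reductase of the lanosterol branch, was 0.64 higher in pool 2 but −0.07 and −0.03 in pools 1 and 3. Hmgcs1, the HMG-CoA synthase that commits carbon to mevalonate, was at 0.22, −0.29 and 0.16. Dhcr7 and Sc5d, a late reductase and a late desaturase of the sterol ring, had differences of −0.01 (SE 0.21) and −0.07 (SE 0.23), and Msmo1, the methyl oxidase, −0.02 (SE 0.15).

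Among uptake genes, Scarb1 measured 1966, 1622 and 1607 with vehicle and 2511, 1804 and 1776 with AMH 50, a difference of 0.22 (SE 0.24). Every pool was higher, with overlapping groups. Stard4, a carrier that moves sterol between membranes, was 0.21 higher (SE 0.25). The exporters varied widely between pools. Abca1, which loads cholesterol onto apolipoproteins, had vehicle signals of 782, 342 and 1108 and AMH 50 signals of 623, 836 and 1001. The low vehicle array of pool 2 makes its difference 1.25 there, against −0.32 and −0.14 in pools 1 and 3. Abcg1, which exports cholesterol to mature lipoprotein particles, was at 106, 73.6 and 138 with vehicle and 51.7, 86.9 and 94.3 with AMH 50 (difference −0.38, SE 0.33).

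The higher dose differed from the same vehicle arrays in the other direction. With AMH 200 ng/mL at 24 h, 15 of 17 enzymes and 20 of 26 genes were below vehicle, with medians of −0.12 and −0.11, against 47.6% of all genes and a median of 0.008. With quantile normalization 21 of 26 were below vehicle, with a median of −0.051. The median over the 26 was −0.12, −0.15 and −0.08 in pools 1, 2 and 3. Lower in all 3 pools were 9 of 26, and 0 were higher in all 3, against 12.7% and 15.9% of all genes. These were Mvk, Mvd, Idi1, Fdps, Cyp51, Nsdhl, Sc5d, Dhcr7 and Srebf2. At an unadjusted p under 0.05 there were 0 of 26, against 1.94% of all genes.

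Idi1, the isomerase that interconverts the isoprenoid units, had the lowest value. Its signals were 1740, 1171 and 1041 with vehicle and 1392, 864 and 922 with AMH 200. Within each pool AMH 200 was lower, by −0.32, −0.43 and −0.17, and the fitted difference was −0.31 (SE 0.14). Sc5d was at 950, 770 and 898 with vehicle and 926, 564 and 701 with AMH 200 (difference −0.27, SE 0.23), and Dhcr7 at 1324, 1198 and 1068 and 1138, 910 and 1008 (difference −0.23, SE 0.21). In both genes pool 2 held the largest difference. Fdps, which joins isoprenoid units to farnesyl diphosphate, was lower by nearly the same amount in the 3 pools (−0.12, −0.13 and −0.12), as was Mvd (−0.21, −0.21 and −0.20). Srebf2 was 735, 792 and 649 with vehicle and 701, 738 and 631 with AMH 200 (difference −0.07, SE 0.13). Abca1 (0.05, SE 0.35) and Abcg1 (0.30, SE 0.33) were above vehicle in pool 2 alone (1.05 and 1.21).

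**Figure D1:**
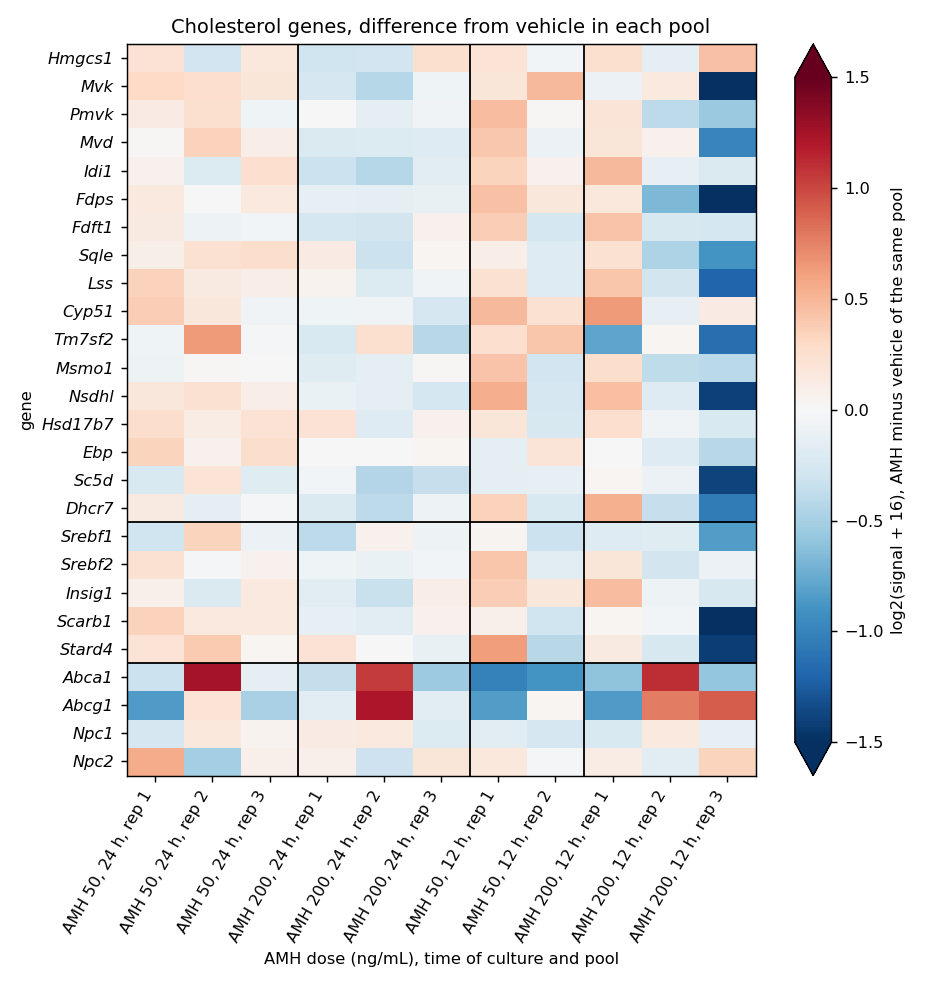
Difference from vehicle of the same pool, as log2(signal + 16), for 26 genes (vertical axis) in each AMH array but the one that stood apart (horizontal axis); red is higher, blue lower, and colour ends at 1.5 either way. The AMH 50 columns at 24 h are mostly pale red and the AMH 200 columns pale blue among the synthesis genes (top block), and the darkest blue column is AMH 200 at 12 h in replicate 3.

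The direct comparison of doses at 24 h, which does not use the vehicle arrays for its value, gave the most even direction. AMH 200 was below AMH 50 in 17 of 17 synthesis enzymes, with a median of −0.22 (Msmo1 was at 0.003 with quantile normalization), and in 24 of 26 genes, with a median of −0.21 (22 with quantile normalization), against 48.8% of all genes and a median of 0.005. The exceptions were Abcg1 and Npc1, the lysosomal sterol exporter (0.03, SE 0.15). The median over the 26 was −0.26, −0.23 and −0.15 in pools 1, 2 and 3. Of the 26, 15 were lower in all 3 pools (11 of them enzymes), against 12.4% of all genes, and 1 was higher in all 3, Abcg1, against 15.1%. An unadjusted p under 0.05 was reached by 1 of 26, Idi1, against 4.33% of all genes. The comparison shares its AMH arrays with the 2 comparisons above, so the 3 are not independent of each other.

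Mvk differed most. Its signals were 397, 426 and 387 with AMH 50 and 266, 262 and 322 with AMH 200, so that every AMH 200 array lay below every AMH 50 array. The difference was −0.49 (SE 0.31, limma adjusted p = 0.999). Fitted on the 9 arrays of 24 h only, the SE was 0.11 and the adjusted p 0.341, the smallest of the 26 genes there. Mvd was at 805, 754 and 659 with AMH 50 and 687, 509 and 534 with AMH 200 (difference −0.36, SE 0.19). Nsdhl, the dehydrogenase of sterol demethylation, was at 1033, 882 and 905 against 857, 682 and 697 (difference −0.33, SE 0.24). In Nsdhl the groups did not overlap, and in Mvd 1 AMH 200 array lay within the AMH 50 range.

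Idi1 had signals of 1821, 1015 and 1247 with AMH 50 and 1392, 864 and 922 with AMH 200 (difference −0.35, SE 0.14). Tm7sf2 had 440, 455 and 419 against 391, 342 and 315 (difference −0.32, SE 0.21). All AMH 200 arrays of Tm7sf2 were below all AMH 50 arrays, whereas Idi1 varied more between pools than between doses. Cyp51, the lanosterol demethylase, differed by −0.29 (SE 0.15), Lss by −0.26 (SE 0.21), Sqle by −0.25 (SE 0.18), Fdps by −0.22 (SE 0.25), Dhcr7 by −0.22 (SE 0.21) and Ebp by −0.21 (SE 0.15). Sqle and Sc5d were not lower in pool 1 (0.04 and 0.19), and Fdft1, the squalene synthase, Hmgcs1, Pmvk, the kinase that follows Mvk, and Msmo1 were not lower in pool 3 (0.11, 0.08, 0.01 and 0.02).

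Scarb1 was at 2511, 1804 and 1776 with AMH 50 and 1798, 1442 and 1687 with AMH 200 (difference −0.29, SE 0.24). It was lower in every pool, with overlapping groups. The sensors differed less, with −0.16 for Srebf2 (SE 0.13), −0.14 for Insig1 (SE 0.15) and −0.12 for Srebf1, which drives fatty acid genes (SE 0.16). Abcg1 went the other way, from 51.7, 86.9 and 94.3 with AMH 50 to 93.1, 191 and 122 with AMH 200. It was 0.69, 1.01 and 0.32 higher in the 3 pools, and the groups overlapped narrowly (93.1 against 94.3). The difference was 0.68 (SE 0.33, limma adjusted p = 0.999). A dimmer probe set of Abcg1, which was below the filter and not tested, was at 0.13. Npc2, which hands sterol to Npc1, had −0.06 (SE 0.18) with pools on both sides of 0.

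**Figure D2:**
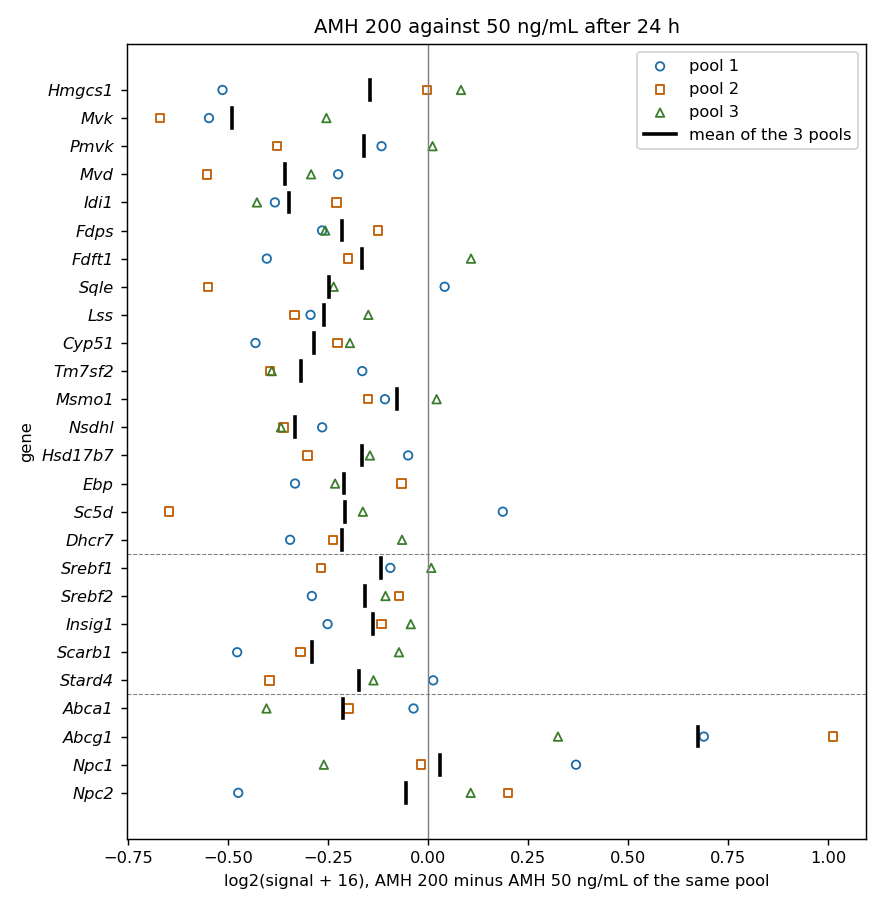
AMH 200 minus AMH 50 ng/mL at 24 h, as log2(signal + 16), for 26 genes (vertical axis); open points are the 3 pools and black bars their mean. Bars of all 17 synthesis genes (above the first dashed line) lie left of 0, from −0.49 for Mvk to −0.08 for Msmo1 (0.003 with quantile normalization), and Abcg1 lies at 0.68.

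The order AMH 50 above vehicle above AMH 200 was met in all 3 pools by 3 of 26 genes (11.5%), Mvk, Mvd and Nsdhl, against 75 of 11238 genes (0.667%). Single pools showed it in 12, 13 and 9 of the 26, against 20.6%, 16.6% and 18% of all genes. This order was not among the planned comparisons and uses the same arrays as those above, so it is no separate test. From vehicle, Mvk differed by 0.24 with AMH 50 and −0.25 with AMH 200, Mvd by 0.15 and −0.20, and Nsdhl by 0.17 and −0.16. The dimmer second probe sets were nearer to vehicle with AMH 50, at 0.045 and −0.24 for Mvk and 0.056 and −0.22 for Mvd. Between the doses both were at −0.28. Nsdhl had 1 probe set. Of 15 genes with several tested probe sets, all probe sets of a gene had 1 direction in 10 for the comparison of doses and in 14 for AMH 50 against vehicle at 24 h. For AMH 200 against vehicle at 24 h this held in 9, the exceptions being Cyp51, Fdft1, Hmgcs1, Msmo1, Npc2 and Stard4. It held in 7 for AMH 50 at 12 h, in 10 for AMH 200 at 12 h and in 10 for vehicle at 24 h against 12 h. Those with a probe set above 0 in the comparison of doses were Cyp51 (0.01), Hmgcs1 (0.004), Hsd17b7 (0.04), Msmo1 (0.43) and Npc2 (0.03), each dimmer than the one used.

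Markers of the cell types in the follicle also differed between the doses at 24 h. Theca markers were lower with AMH 200 than with AMH 50 in 6 of 6 genes (median −0.41, summed signal 5098 to 5771 against 5691 to 9204). Their medians were −0.76, −0.08 and −0.33 in pools 1 to 3, with 3 of 6 lower in pool 2. Oocyte markers were higher in 10 of 10 (median 0.91, sums 1608 to 6621 against 1080 to 4402), and granulosa markers in 6 of 9 (median 0.19, sums 7169 to 8564 against 6179 to 8096). The oocyte medians were uneven, at 0.20, 0.55 and 1.73 in pools 1 to 3, with 3 of 10 lower in pool 1. Against vehicle, oocyte markers were lower in 10 of 10 with AMH 50 (median −0.96; −0.31, −0.76 and −1.40 in pools 1 to 3). Markers of leukocytes (8 of 8) and of the surface epithelium (10 of 10) were lower with both doses by the fit. Single pools held exceptions. In pool 2, 1 of 8 leukocyte markers was higher with AMH 50 and 3 of 8 with AMH 200. Of 10 surface markers, 3 were higher in pool 1 with AMH 50 and 2 in pool 3 with AMH 200. The part of these shifts in the cholesterol gene differences was not tested.

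Neighbouring pathways were read in the same comparison of doses from lists of their genes, and no gene of these lists passed the limma threshold. Fatty acid synthesis, driven by Srebf1, was lower in 12 of 14 genes (median −0.08), mainly in pool 1. The pool medians were −0.33, 0.01 and −0.02, with 11, 7 and 8 of 14 lower. Fads2, a fatty acid desaturase, was at −0.45 (SE 0.21) and Elovl6, an elongase, at −0.28 (SE 0.18). Mid1ip1, which activates acetyl-CoA carboxylase, was the opposite at 0.48 (SE 0.15). The machinery that processes SREBP was lower in 4 of 7 (median −0.02), other isoprenoid branches in 3 of 7 (median 0.03) and LXR with its targets in 3 of 5 (median −0.05), of which Lpcat3, a phospholipid acyltransferase, had −0.46 (SE 0.17). Users of cholesterol for steroid synthesis were lower in 5 of 5 (median −0.26; −0.62, −0.25 and −0.04 in pools 1 to 3). Star, Cyp11a1 and Cyp17a1 of this list are also among the theca markers above. Star, which carries cholesterol into mitochondria, was at 2485, 1633 and 1796 with AMH 50 and 1476, 1127 and 1379 with AMH 200 (difference −0.55, SE 0.26). The other uptake and sterol transfer genes were lower in 7 of 12 (median −0.10). Stard5, a cytosolic sterol-binding protein, was at 774, 365 and 287 with AMH 50 and 310, 148 and 196 with AMH 200. It was lower in each pool, at −1.003 (SE 0.29).

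At 12 h the pools did not move together. With AMH 50, where 2 pools were left, the median over the 26 was 0.24 in pool 1 and −0.14 in pool 2, and over the 17 enzymes it was 0.34 and −0.09. Higher in both pools were 7 genes and lower in both were 3, against 28.2% and 27.3% of all genes. The fit also drew on the vehicle and higher-dose arrays left in the 12 h pool of replicate 3. Its values are therefore not the means of pools 1 and 2. The fit put 16 of 26 below vehicle, with a median of −0.03, against 56.5% of all genes and a median of −0.04. With median centring 8 were below and the median was 0.12, with all genes at 0.10, and without the 12 h pool of replicate 3 there were 8, with a median of 0.07. At an unadjusted p under 0.05 there was 1 gene, Abca1, against 6.5% of all genes. Its signal was 836 and 328 with vehicle and 407 and 169 with AMH 50 in pools 1 and 2. Both pools were lower, by −1.01 and −0.90, while the vehicle arrays themselves differed more, and the fitted difference was −1.09 (SE 0.41, limma adjusted p = 0.862). Cyp51, at 1388 and 1490 with vehicle and 1956 and 1750 with AMH 50, was the enzyme with the highest value (0.34, SE 0.17). In the same fit, oocyte markers were lower in 10 of 10 (median −0.87; −1.06 and −0.55 in pools 1 and 2). Theca markers were lower in 6 of 6 (median −0.35; −0.40 and −0.13 in the pools). Endothelial markers were lower in 6 of 7 (median −0.51; −0.34 and 0.14), though 5 of 7 were higher in pool 2. Surface epithelium markers were higher in 10 of 10 by the fit (median 0.44). In pools 1 and 2 themselves 7 of 10 were higher, with medians of 0.18 and 0.23. The part of these markers in the differences was not tested.

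With AMH 200 at 12 h, 20 of 26 genes were below vehicle (16 with median centring), with a median of −0.23, against 58.9% of all genes and a median of −0.07. The pools gave 0.18, −0.16 and −0.57 over the 26 and 0.24, −0.19 and −0.90 over the enzymes, so that pool 1 lay above vehicle and pools 2 and 3 below. All genes in pool 3 had a median of −0.22. Lower in all 3 pools were 2 genes, Ebp and Srebf1, and higher were 0, against 13.6% and 9.09% of all genes. Genes at an unadjusted p under 0.05 were 5 of 26, against 11.1% of all genes. Without pool 3, 14 of 26 were below vehicle with a median of −0.02, and the enzymes had a median of 0.05. Markers moved in pool 3 as well. Endothelial markers were lower in 7 of 7 (median −0.57; −0.65, 0.80 and −2.35 in pools 1 to 3), and surface epithelium markers were higher in 10 of 10 (median 0.56; 0.42, −0.26 and 1.66). Their part in the cholesterol gene differences was not tested.

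Fdps shows how much pool 3 weighs. Its signal was 1000, 861 and 1077 with vehicle and 1114, 534 and 300 with AMH 200. It differed from vehicle by 0.15, −0.67 and −1.79 in pools 1 to 3, and the fit gave −0.77 (SE 0.25, limma adjusted p = 0.432). Mvk was at 246, 252 and 352 with vehicle and 231, 281 and 70.9 with AMH 200, low in pool 3 only. Srebf1 was at 687, 1132 and 630 with vehicle and 599, 992 and 346 with AMH 200 (difference −0.41, SE 0.16). It was lower in every pool, most in pool 3 (−0.84 against −0.19 and −0.19). Cyp51 and Hmgcs1 were not low in that array, at 2029 and 3054 against vehicle values of 1864 and 2241. Their other tested probe sets differed, as means over the pools. For Cyp51 they were at −0.33 and −0.08, against 0.21 for the one used. For Hmgcs1 they were at −0.24, −0.34, −0.13 and 0.51, against 0.18.

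The difference between doses and times was tested as an interaction, AMH minus vehicle at 24 h less the same at 12 h. Limma called 0 of 22518 probe sets in either (0%), so no gene of the set passed, with a smallest limma adjusted p of 0.999 for AMH 50 and 0.628 for AMH 200. The highest values were 1.35 for Abca1 with AMH 50 (SE 0.54) and 0.65 for Fdps with AMH 200 (SE 0.35). Abca1 had been lower at 12 h and was unevenly placed at 24 h.

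**Figure D3:**
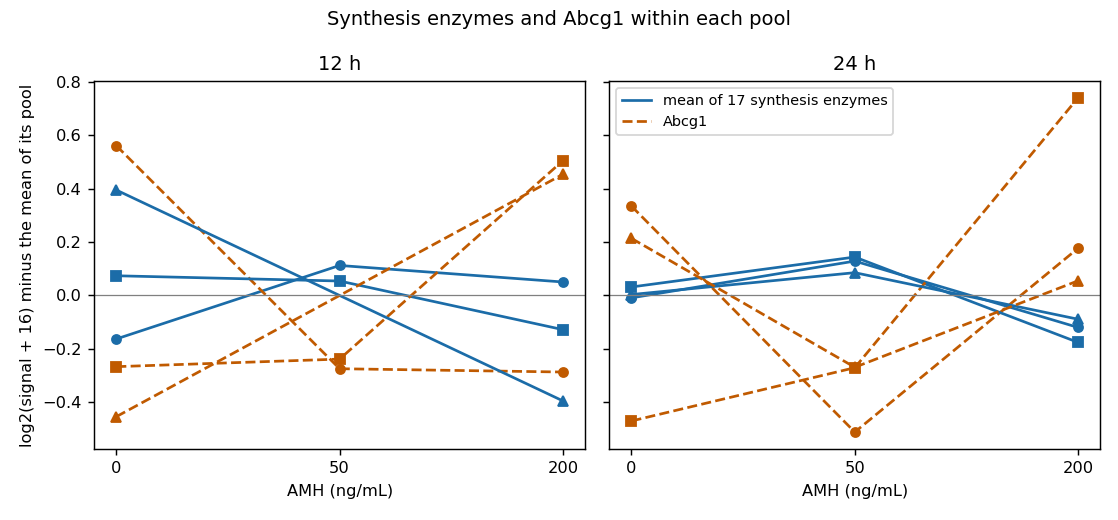
Mean log2(signal + 16) of the 17 synthesis enzymes (blue, solid) and of Abcg1 (orange, dashed), minus the mean of each pool (vertical axis), by AMH dose in ng/mL (horizontal axis) at 12 h (left) and 24 h (right); circles, squares and triangles are pools 1 to 3. At 24 h the enzyme mean peaked at AMH 50 in each pool (0.13, 0.14 and 0.09) and was lowest at AMH 200 (−0.12, −0.18 and −0.09), while Abcg1 was higher at AMH 200 than at AMH 50; at 12 h the pools crossed.

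Vehicle cultures of the later time were set against the earlier ones to see how the genes differed without AMH. Here limma called 292 of 22518 probe sets (1.3%), and 0 of the 26 genes. Of the 26, 19 were higher at 24 h (12 with median centring, which shifted the median of all genes by −0.10) with a median of 0.06, against 49.6% of all genes and a median of −0.003, and 14 of 17 enzymes were, with a median of 0.17. Over the 26 the median was −0.04 with median centring and 0.003 to 0.17 when 1 array was left out, and that of the enzymes 0.04 to 0.26. Signals of the times did not overlap in 4 of the 26, all higher at 24 h, against 13.9% of all genes, and 0 were lower without overlap, against 12.4%. The same number, 4 of 26, had an unadjusted p under 0.05, against 20.4% of all genes.

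Tm7sf2 had the largest difference, at 153, 146 and 213 after 12 h and 462, 287 and 427 after 24 h. Each 24 h array was above each 12 h array. The difference was 1.12 (SE 0.23, limma adjusted p = 0.0606). The adjusted p was 0.0405 with the replicate number as a block, although these numbers are not said to pair the times. It was 0.0184 in the 17 arrays with the pool as a random block, and 0.0305 without vehicle replicate 3 of 12 h. Scarb1 was at 1058, 912 and 1405 after 12 h and 1966, 1622 and 1607 after 24 h (difference 0.63, SE 0.18, limma adjusted p = 0.119), and without the same array the adjusted p was 0.0452. Hsd17b7 was at 466, 540 and 635 against 812, 816 and 666 (difference 0.48, SE 0.17, limma adjusted p = 0.18). Mvd was at 472, 412 and 572 against 798, 589 and 615 (difference 0.45, SE 0.18, limma adjusted p = 0.241).

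In the other enzymes the times overlapped. Fdps was at 1000, 861 and 1077 after 12 h and 1545, 1368 and 1017 after 24 h (difference 0.40, SE 0.18), and Ebp at 266, 189 and 226 against 347, 317 and 244 (difference 0.39, SE 0.20). In both the lowest 24 h array fell within the 12 h range. Lss went the other way, at 1186, 1514 and 1401 against 1206, 1119 and 1049 (difference −0.27, SE 0.14). Its other tested probe sets were at −0.23 and 0.11. Srebf2 (−0.06, SE 0.14) and Insig1 (0.02, SE 0.15) differed by less than their SE, while a second probe set of Srebf2 was at 0.28. Abca1 was low in vehicle replicate 2 at both times (328 and 342) and between 782 and 1213 in the other vehicle arrays.

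The same order of times was then looked at over all doses, a view chosen after the vehicle values were seen, with 9 arrays of 24 h and 8 of 12 h. Tm7sf2 ranged from 287 to 462 at 24 h and from 81.5 to 213 at 12 h. Hsd17b7 ranged from 666 to 979 and from 456 to 635, and Scarb1 from 1442 to 2511 and from 470 to 1405. These 3 genes did not overlap, against 5.75% of all genes higher and 3.43% lower without overlap, whereas Mvd did, with 509 to 805 and 281 to 628. The vehicle arrays are among these, so this is no separate test.

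**Figure D4:**
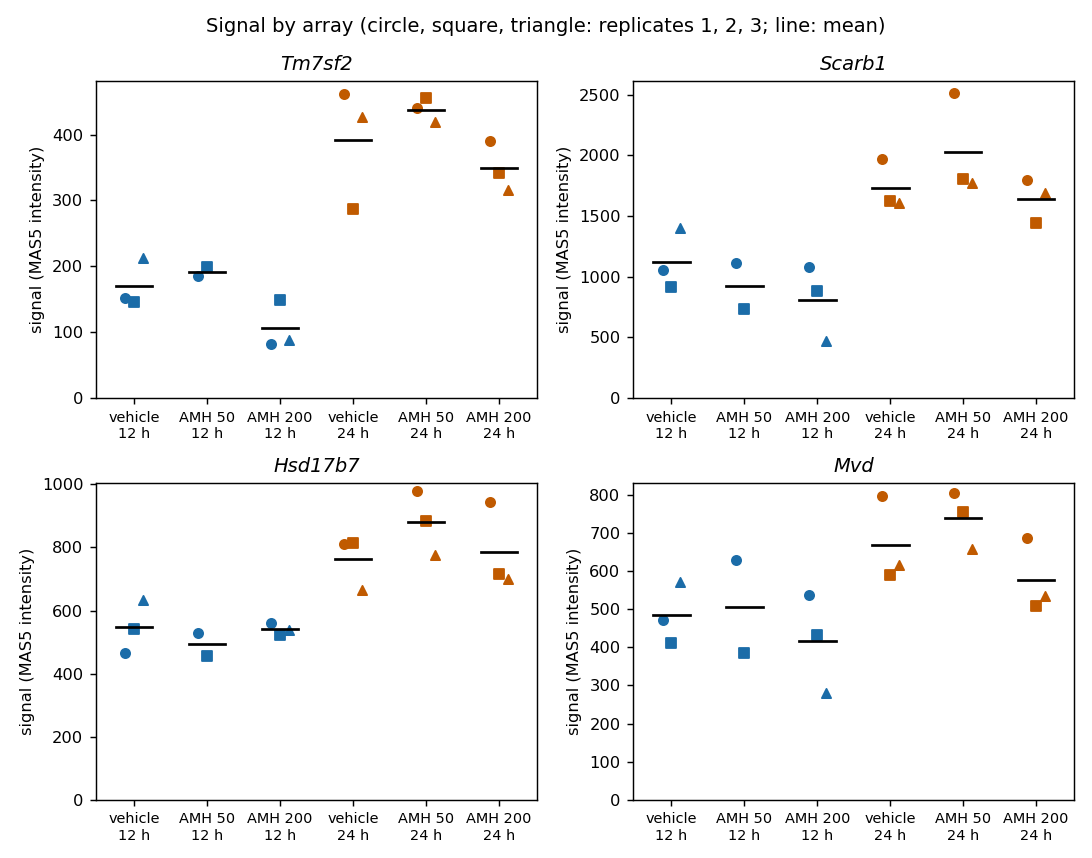
Deposited signal (vertical axis, MAS5 intensity) of Tm7sf2, Scarb1, Hsd17b7 and Mvd in the 6 groups (horizontal axis); blue is 12 h, orange 24 h, each point is 1 array and each line a group mean. In all panels but Mvd every 24 h array lies above every 12 h array, with Tm7sf2 at 287 to 462 against 81.5 to 213.

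Of the neighbouring lists, Scap, which escorts SREBP out of the endoplasmic reticulum, was the gene of the SREBP machinery that passed the test. Its signals were 784, 590 and 744 after 12 h and 1259, 1306 and 1429 after 24 h, and it rose by 0.91 (SE 0.15, limma adjusted p = 0.0388). Insig2, which encodes the other INSIG protein, was at 0.47 (SE 0.16) and did not pass. Genes of steroid synthesis were higher in 5 of 5 (median 0.40), LXR and its targets in 5 of 5 (median 0.28), fatty acid synthesis in 11 of 14 (median 0.21), and other uptake and transfer genes in 10 of 12 (median 0.14), with 0 passing. Granulosa markers moved with time as well: 8 of 9 were higher (median 0.73), with sums of 6901 to 7340 at 24 h against 2457 to 5146 at 12 h. Oocyte markers were higher in 9 of 10 (median 0.21), but only replicate 3 had a higher sum at 24 h. Their sums in replicates 1 to 3 were 1756, 7488 and 3682 at 24 h and 5087, 9991 and 541 at 12 h. Endothelial markers were lower in 7 of 7 (median −0.78), with sums of 631 to 1609 against 1097 to 4155. Leukocyte markers were higher in 6 of 8 (median 0.31, from −2.27 to 1.42) and surface epithelium markers in 7 of 10 (median 0.49, from −0.67 to 2.53). Limma called 2 granulosa, 1 leukocyte and 1 surface epithelium marker at an adjusted p under 0.05. Vehicle replicate 3 of 12 h, the array without which Tm7sf2 and Scarb1 passed, lay apart from the 12 h mean in oocyte (−2.60), endothelial (1.30) and granulosa markers (−0.66). The part of these markers in the differences was not tested.

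The array that stood apart, AMH 50 at 12 h in replicate 3, was far below its vehicle partner for most of the genes. Over the 26 the median was −2.82, against −0.78 over all genes, with 23 lower and 3 higher. Idi1 read 3.23 there against 1188 in the vehicle array of the pool, Sqle 20.5 against 773, and Abca1 65.0 against 1213. Hmgcs1 read 13708 against 2241. It lay below the whole range of the other 17 arrays for 22 genes, above it for Hmgcs1, and within it for 3, among them Abcg1 (196) and Npc1 (318).

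Across the arrays, the enzymes followed each other within pools. Over the 17 arrays in 6 pools, each enzyme's pool-centred log2 value was compared with the mean of the other enzymes. The median Pearson r was 0.77, from −0.19 for Hmgcs1 to 0.95 for Nsdhl, against a median of 0.15 for 11212 other genes. These arrays share pools and the low array of the 12 h pool 3. Leaving that pool out, a view added after the values were seen, left 15 arrays in 5 pools. It gave 0.69, from 0.12 for Tm7sf2 to 0.84 for Nsdhl, against −0.04. Among the other genes of the set, Scarb1 (0.88) and Stard4 (0.86) were closest to the enzymes in the 17 arrays, with Insig1 at 0.66 and Srebf2 at 0.59. In the 15 arrays Srebf2 (0.82) and Insig1 (0.71) were closest, with Scarb1 at 0.59 and Stard4 at 0.57. Abcg1 lay opposite at −0.88 in the 15 arrays and −0.80 in the 17. The genes outside the set most like the enzyme mean in the 17 arrays were Abhd4 (0.94), Aacs (0.93), Agtrap, Copb1, Trabd, Ier2, Ruvbl2, Wipi2, Zxda and Tmem41b. Aacs activates acetoacetate for lipid synthesis. Hmgcs1 rests on that pool, with 0.50 without it.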

How the data were processed

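RNA (5 ng per sample) was amplified, labelled and hybridised to 18 arrays, 1 per culture, per the labels. The deposited table holds intensities computed with MAS5 by the authors, per the submitters' processing notes (version not given in the sources used here). They are on a linear scale with a 2% trimmed mean of 150 on every array. From 45101 probe sets, 64 controls were set aside. Of the rest, the array annotation gave 1 symbol to 34945, several to 932 and none to 9160, and only the first were named. Values were used as deposited, 16 was added and log2 taken. Those brighter than the 50th percentile by mean log2, 22518 in number, were tested with limma 3.58.1 in R 4.3.3 (lmFit, eBayes with an intensity trend). Tests were two-sided, with Benjamini-Hochberg adjustment over all tested and a threshold of 0.05. The AMH comparisons used 17 arrays with the pool as a block (7 residual degrees of freedom), and the time comparison 6 vehicle arrays (4).

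The pairing comes from the culture protocol, in which 1 pool was divided over the doses. Deviations of arrays of 1 pool correlated at 0.067 to 0.497. The description of the 12 h AMH samples names 24 h, but titles and source names give 12 h, which was used. All members are named, and other genes were, from each list, up to 4 with the lowest unadjusted p (some are left out), plus the 10 most like the enzyme mean. The members, the other lists and the array set apart were chosen with earlier results of these data known. Scripts were tested on simulated data. Alternatives changed the pseudocount, normalization, filter, trend, probe sets per gene, block and arrays. Promoter sequences are RefSeq GRCm38.p6. Figures were drawn with matplotlib 3.10.9.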

Additional observations from a re-analysis of the deposited data

How the results depend on the processing

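No alternative gave a limma adjusted p under 0.05 for any of the 26 genes in an AMH comparison, and the medians of 24 h kept their direction in all of them. For AMH 50 against vehicle at 24 h, the median of the enzymes was 0.12 with quantile normalization, 0.26 with median centring of the arrays and 0.10 with the mean of all probe sets. Centring also gave a median of 0.20 over the 26 and 1 gene lower, while it shifted all genes by 0.11. Leaving out 1 pool gave 0.089 to 0.18 for the enzymes. For AMH 200 against vehicle at 24 h, quantile normalization gave a median of −0.051. For AMH 200 against 50, centring gave −0.31 over the 26 and −0.32 for the enzymes, with all genes at −0.10, and leaving out 1 pool gave −0.28 to −0.22. At 12 h with AMH 50, the genes below vehicle were 8 with centring, 8 without the pool of replicate 3, 7 with no replicate block, and 8 to 18 without 1 pool. With all 18 arrays the medians there were −0.88 over the 26 and −0.94 for the enzymes. For time, the genes lower at 24 h were 14 with centring, which shifted all genes by −0.10, and 5 to 13 without 1 array. The genes called were 1 with the replicate number as a replicate block, 1 with the pool as a random block, and 0 to 2 without 1 array. The replicate numbers are not said to pair 12 h with 24 h. Probe sets near the array median (18.0 to 36.5) limit what can be seen in dim genes.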
